A study of Mus musculus with 12 samples.

Results

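The genes of the proteasome were followed in 3T3-L1 adipocytes, fat-storing cells differentiated in culture from a mouse preadipocyte line, after electroporation with siRNA against Zfp407, the gene of a zinc finger protein. Members were taken by name: rows of the expression table whose only gene symbol is Psma, Psmb, Psmc, Psmd, Psme, Psmf or Psmg followed by a number, with a mean of at least 1 FPKM (sequenced fragments scaled to transcript length and to library size) over the 12 libraries. The rule found 44 members among the 39248 rows of the table, of which 14706 reached the same minimum and were tested. The control arm was 6 libraries of cells given a control siRNA, and the knockdown arm was 6 libraries of cells given 1 of 2 siRNAs against Zfp407, 3 libraries with each. All cells received 0.75 nmol of siRNA by electroporation 2 days after differentiation, and all came from the same cell line. The columns of the knockdown libraries do not mark the siRNA, so these 6 libraries were treated as 1 arm. Nothing in the labels says whether the samples of an arm came from separate cultures, so the p-values measure the spread between these samples, which may be technical.

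The proteasome is the protease that degrades proteins tagged with ubiquitin. Its barrel-shaped core is built from rings of alpha subunits, which form the gate, and rings of beta subunits, some of which cut peptide bonds. A regulatory cap binds the core: its base holds a ring of ATPases that unfold substrates and its lid removes ubiquitin. Activators can take the place of the cap, dedicated chaperones assemble the parts, and immune cells or cells exposed to interferon exchange the cutting beta subunits for immunoproteasome subunits. In brown fat, proteasome activity is known to matter for heat production.

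The proteasome genes did not move as a block when Zfp407 was knocked down. By limma with Benjamini-Hochberg adjustment over all rows tested, 16 of the 44 members differed between the arms at an adjusted p under 0.05, which is 36.4% of the members, and 36.4% of all rows tested were called. Of the members 11 rose, which is 25.0% beside 11.6% of all rows, and 5 fell, which is 11.4% beside 24.8% of all rows. The counts by class below stand beside the same shares of all rows, and no class holds more than 8 members. The median log2 fold change was 0.02 over the members and −0.05 over all rows tested. The changes were small, from 0.11 to 0.58 in size on the log2 scale among the 16 called members. The arms did not overlap for 11 members (25.0%), and they did not overlap for 19.5% of all rows tested. Against a minimum fold of 1.2, 1 member passed, Psmd9, where 5.82% of all rows did.

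Several facts of the whole series bear on these values. The targeted gene, Zfp407, measured 2.73, 3.16, 2.798, 2.92, 2.71 and 2.701 FPKM with control siRNA (libraries 1 to 6). With siRNA against it the values were 2.13, 1.93, 1.79, 1.65, 1.604 and 1.62 FPKM, so the arms did not overlap and the mean fell by 36.9%. The 10 markers of adipocytes were all detected in every library, with Adipoq at a mean of 3026 FPKM in control, while Ptprc, Emr1, Csf1r, Itgam and Cd3e, which mark macrophages and other immune cells, reached at most 0.143 FPKM in any library. Of the 10 adipocyte markers 5 fell, among them Adipoq, at 2476 FPKM in the knockdown arm, and Lep, which codes for leptin and went from a mean of 9.803 to 4.61 FPKM, the only marker past the minimum fold. Of 5 tested markers of preadipocytes or fibroblasts 2 fell, while none of either list rose. Over all rows tested 24.8% fell and 11.6% rose. In such bulk samples fewer cells of a type and less RNA per cell cannot be told apart, and the part of these markers in the results was not tested. Relative depth, read from the worth of 1 read in low rows, ran from 0.88 to 1.15 relative to control library 1. In such rows the worth of 1 read differed between the arms in 30.6% of 743 rows, with a 90th percentile of 0.23 on the log2 scale over all of them, although it differed in 3 of 286 rows between control libraries and in 1 of 323 between knockdown libraries. Rows with the largest differences were left out before counting, so with them in the percentile could only be larger. A difference of 0.23 between whole arms is not covered by the spread between libraries. Of the 16 called members, 8 changed by more than it: Psmd9, Psma5, Psma2, Psmc4 and Psmg4 upward, and Psmc5, Psme4 and Psme1 downward. The loci of 18 members overlap other rows, among them Psmd9, Psma5, Psmc5, Psme4 and Psme1, which were just named, and Psme2. The sources used here do not say whether counting used strand. Among the 26 members that overlap none, 8 rose and 2 fell.

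**Figure D1:**
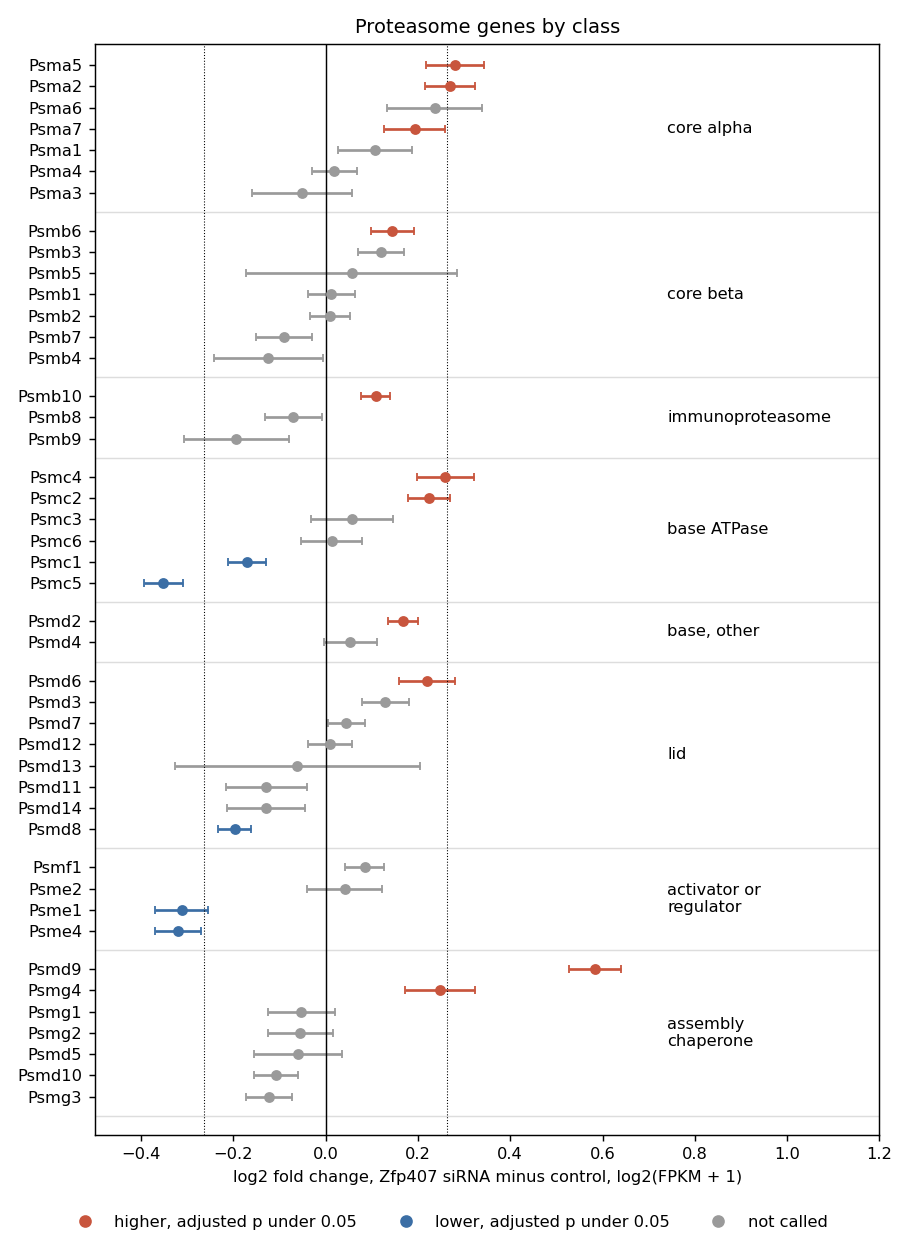
Log2 fold change of each of the 44 proteasome genes (Zfp407 siRNA minus control, on log2(FPKM + 1), 6 libraries an arm), with points at the estimate, bars of 1 SE, dotted lines at a fold of 1.2 in either direction, and red for higher, blue for lower and grey for not called at an adjusted p under 0.05. Psmd9 stands apart at 0.58, while the called members of the other classes lie between −0.35 and 0.28.

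To show the regulatory sequence of the members at the ends of this range, the RefSeq promoter windows (GRCm38.p6, 250 bases before to 50 bases after the start site) of the member with the largest rise and of the member with the largest fall are printed here in the direction of transcription. Capitals mark a match to the core of the antioxidant response element, TGACNNNGC on either strand, a sequence bound by NFE2L1 and NFE2L2, factors known to drive proteasome genes. The window of Psmd9 is chr5:123227940-123228239 on the plus strand and that of Psmc5 is chr11:106255935-106256234 on the plus strand.
Psmd9: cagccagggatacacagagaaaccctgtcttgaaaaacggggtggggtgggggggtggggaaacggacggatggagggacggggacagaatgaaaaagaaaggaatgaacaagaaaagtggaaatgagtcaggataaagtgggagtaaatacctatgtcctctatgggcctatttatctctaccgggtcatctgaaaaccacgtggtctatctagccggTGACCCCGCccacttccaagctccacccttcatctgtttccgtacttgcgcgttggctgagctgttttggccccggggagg
Psmc5: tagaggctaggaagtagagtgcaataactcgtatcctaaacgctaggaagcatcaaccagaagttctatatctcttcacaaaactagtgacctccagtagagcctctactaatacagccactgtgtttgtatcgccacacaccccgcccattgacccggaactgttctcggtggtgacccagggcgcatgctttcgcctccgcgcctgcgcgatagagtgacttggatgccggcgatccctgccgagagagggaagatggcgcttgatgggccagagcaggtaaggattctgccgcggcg
The windows of 37 of the 44 members could be matched by symbol, and 6 of these genes held the core motif, at these places (21 bases where the window allows, read on the strand of the motif, capitals on the core).
Psmd9: agccggTGACCCCGCccactt
Psmb6: agagagTGACGGAGCgcttta
Psme4: ttctggTGACGCTGCagccgc
Psmb5: aagttgTGACGTCGCggcgtt
Psmc6: aatgccTGACTTAGCtactgg
Psmd12: caaatgTGACACAGCaga
The 6 genes included risers (Psmd9 and Psmb6), a faller (Psme4) and genes not called (Psmb5, Psmc6 and Psmd12). A match is a description of the letters and not of binding. The motif stood in 15% of the 40 windows of members and in 12.4% of all 32851 windows. The CCAAT box, CCAAT on either strand, stood in 30% of the members' windows and in 37.4% of all windows, with a match in 3 of the 11 genes that rose, 1 of the 5 that fell and 8 of the 21 not called.

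The members spanned a wide range of levels in control cells, from a mean of 8.77 FPKM for Psmb8 to 861 FPKM for Psme2, with a median of 85.3 FPKM. Since FPKM is scaled to transcript length, these levels can be set beside each other, but only roughly. The loci of Psmb8, Psme2 and Psmd13 overlap other rows, and the part of this in their levels was not tested. The alpha subunits, present in equal numbers in the ring, ran from 87.6 FPKM for Psma5 to 273 FPKM for Psma1, and the beta subunits from 86.6 FPKM for Psmb2 to 593 FPKM for Psmb5. The ATPases lay lower and closer together, between 48.1 FPKM for Psmc4 and 111 FPKM for Psmc3, and the lid between 54.3 FPKM for Psmd6 and 129 FPKM for Psmd13. The mean of Psmd13 was raised by control library 6, at 261 FPKM, and Psmd11 came next at 123 FPKM. Assembly chaperones had levels from 16.1 FPKM for Psmg3 to 55.3 FPKM for Psmd5. The order of the classes by their median FPKM in control was core beta, core alpha, activators and regulators, the other base subunits, lid, ATPases, assembly chaperones and immunoproteasome.

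**Figure D2:**
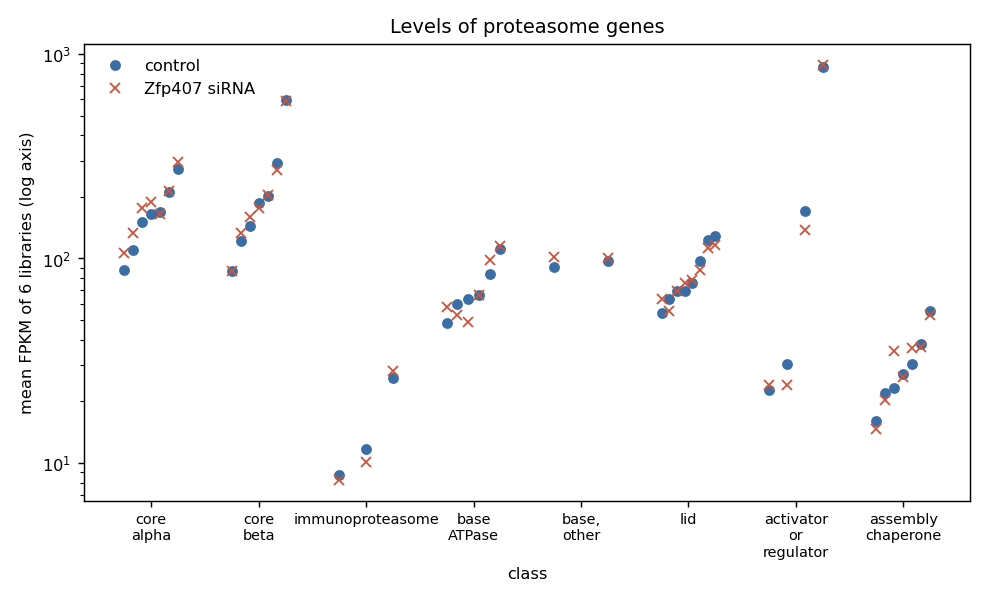
Mean FPKM of 6 libraries for each proteasome gene in control (dots) and Zfp407 siRNA cells (crosses), by class, on a log axis. Within a class the genes are in order of their control level, and the immunoproteasome genes, at 8.77 to 26.1 FPKM in control, are the lowest class by median.

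Among the alpha subunits of the core, 3 of 7 rose, none fell and 4 did not pass. Psma5, an alpha ring subunit, had 90.4, 79.9, 85.1, 81.1, 95.3 and 94.1 FPKM in control libraries 1 to 6 and 105, 97.7, 116, 97.1, 109 and 115 FPKM in knockdown libraries 1 to 6. Every knockdown library was above every control library, with means of 87.6 ± 6.59 and 107 ± 8.33 FPKM (SD, n = 6 each) and a log2 fold change of 0.28 (SE 0.06, limma adjusted p = 0.00398). Psma2, its companion in the same ring, had 111, 106, 106, 101, 119 and 119 FPKM in control and 131, 125, 146, 126, 140.3 and 131 FPKM in knockdown libraries. Here too the arms did not overlap, and the knockdown mean was 20.7% higher (log2 fold change 0.27, SE 0.05, limma adjusted p = 0.00219). Psma7 rose from 165 ± 16.1 to a knockdown mean of 188 ± 11.5 FPKM (SD, n = 6 each, log2 fold change 0.19, limma adjusted p = 0.03997), with overlapping arms. Its call was lost when control library 2, 4 or 5 or any knockdown library but number 2 was left out, and with no filter on low values.

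The alpha subunits that did not pass were Psma1, Psma3, Psma4 and Psma6, with log2 fold changes of 0.11, −0.05, 0.02 and 0.24. Psma6 had control values from 119 to 172 FPKM and knockdown values from 142 to 201 FPKM (limma adjusted p = 0.0931). Psma1 was even in control cells, at 265 to 279 FPKM, and uneven in the knockdown arm, at 261, 265, 252, 346, 324 and 332 FPKM in libraries 1 to 6. Its knockdown libraries thus lay both below and above the control range, and whether this follows the siRNA cannot be read from the columns.

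Of the constitutive beta subunits, 1 of 7 rose and 6 did not pass. Psmb6, the catalytic subunit that cuts after acidic residues, had 147, 135, 141, 139, 145 and 158 FPKM in control and 160.1, 151, 173, 154, 157 and 162 FPKM in knockdown libraries. All 6 knockdown libraries were above the control mean, although the arms overlapped (log2 fold change 0.14, SE 0.05, limma adjusted p = 0.0277). The call of Psmb6 was lost when control library 2, 3 or 4 or knockdown library 1 or 3 was left out (adjusted p from 0.0501 to 0.06004). Psmb4, a structural beta subunit, had 316, 220.0, 286, 286, 332 and 324 FPKM in control and 284, 199, 302, 259, 279 and 295 FPKM in knockdown libraries, with both arms lowest in library 2 (log2 fold change −0.12, SE 0.12, adjusted p = 0.441). The other catalytic subunits, Psmb7 with trypsin-like and Psmb5 with chymotrypsin-like activity, had log2 fold changes of −0.09 and 0.06. Psmb5 was the most uneven of the beta subunits, from 268 FPKM in control library 2 to 815 FPKM in control library 5 (SE of the log2 fold change 0.23). For Psmb1, Psmb2 and Psmb3 the log2 fold changes were 0.01, 0.01 and 0.12, none of which passed.

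The immunoproteasome subunits were low, and of 3, 1 rose and 2 did not pass. Psmb10, which replaces Psmb7, had 25.8, 24.8, 26.7, 25.6, 27.2 and 26.2 FPKM in control and 27.7, 28.7, 28.8, 27.5, 28.7 and 27.5 FPKM in knockdown libraries. The libraries of each arm were close together and the arms did not overlap, so a mean only 8.04% higher was called (log2 fold change 0.11, SE 0.03, limma adjusted p = 0.0152). This change is smaller than the 0.23 by which the worth of 1 read could differ between whole arms. Psmb9, which replaces Psmb6, had 11.1, 13.7, 13.1, 11.3, 8.54 and 12.8 FPKM in control and 9.97, 8.35, 8.601, 10.2, 11.3 and 12.2 FPKM in knockdown libraries. Its lowest control library, number 5, lay within the knockdown range (log2 fold change −0.19, SE 0.11, adjusted p = 0.205), and without that library the fall passed (log2 fold change −0.28, adjusted p = 0.0454). Psmb8, which replaces Psmb5, had 8.88, 7.74, 10.1, 8.06, 9.601 and 8.25 FPKM in control and 7.68, 8.13, 7.74, 8.56, 8.801 and 8.77 FPKM in knockdown libraries, so control libraries 1, 3 and 5 lay above every knockdown library while the other 3 overlapped them (log2 fold change −0.07, SE 0.06, adjusted p = 0.413). The locus of the Psmb10 row overlaps a row of Gm16156 and a row that names Lcat and Slc12a4. The rows of Psmb8 and Psmb9 share their loci with Tap2 and Tap1, which code for the peptide transporter. How reads at these 3 places were assigned was not tested.

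Set against the transcript of the subunit it replaces, that of each immunoproteasome subunit was the lower in FPKM. This compares transcripts and not the subunits in assembled proteasomes. In control cells Psmb10 stood at 14.0% ± 0.892 of the FPKM of Psmb7, Psmb9 at 8.17% ± 1.47 of Psmb6 and Psmb8 at 1.63% ± 0.63 of Psmb5 (SD, n = 6). In knockdown cells these shares were 16.1% ± 1.08, 6.36% ± 0.982 and 1.44% ± 0.263 (SD, n = 6). The ratio of Psmb10 to Psmb7 was higher in the knockdown arm by 0.20 on the log2 scale (exact permutation test, two-sided, p = 0.00649, and 0.0114 after Benjamini-Hochberg adjustment over the 7 ratios tested). The ratios of Psmb9 to Psmb6 and of Psmb8 to Psmb5 differed by −0.36 and −0.13 (exact permutation p = 0.03896 and 0.636, adjusted 0.0545 and 0.636). The 7 pairs were picked after the values had been seen. The worth of 1 read could differ between whole arms for either gene of a pair, and its part in the 7 ratios was not tested. The ratio of Psmb9 to Psmb6 passed without control library 5 or knockdown library 5 or 6 (adjusted p = 0.00758, 0.0485 and 0.0485), and that of Psmb8 to Psmb5 changed sign without control library 2, to 0.04. Psmb11, the form of the thymus, was at most 0.293 FPKM in any library, and Psma8, the form of the testis, is listed at 0 in all 12. Both fell below the minimum and are not members.

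The ATPases of the base moved in opposite directions. Of 6, 2 rose, 2 fell and 2 did not pass. Psmc5 had 65.1, 58.4, 60.3, 62.7, 66.2 and 65.7 FPKM in control and 49.5, 47.7, 49.7, 50.3, 52.1 and 45.7 FPKM in knockdown libraries. It had the largest fall of any member, every knockdown library being below every control library (the mean fell by 22.02%, log2 fold change −0.35, SE 0.04, limma adjusted p = 6.0e-05). Against a minimum fold of 1.2 the adjusted p of Psmc5 was 0.287. Psmc4 had 44.3, 43.02, 49.9, 45.3, 52.6 and 53.5 FPKM in control and 56.5, 52.2, 58.96, 61.2, 59.2 and 57.9 FPKM in knockdown libraries, with knockdown library 2 inside the control range (log2 fold change 0.26, SE 0.06, adjusted p = 0.00587). Psmc2 rose from 84.1 ± 5.07 to 98.3 ± 4.59 FPKM while Psmc1 fell, its means being 59.9 ± 2.69 and 53.1 ± 2.498 FPKM (SD, n = 6 each, with log2 fold changes 0.22 and −0.17, adjusted p = 0.00255 and 0.00669), neither with overlapping arms. Psmc3 and Psmc6 had log2 fold changes of 0.06 and 0.01.

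During assembly the ATPases are known to pair before the ring closes, Psmc2 with Psmc1, Psmc4 with Psmc5 and Psmc6 with Psmc3, and the ratio within each pair was compared between the arms. The ratio of Psmc4 to Psmc5 averaged 0.763 ± 0.0587 with control siRNA and 1.17 ± 0.0626 with Zfp407 siRNA (SD, n = 6 each), so the higher FPKM of the pair was that of Psmc5 in every control library and that of Psmc4 in every knockdown library. For Psmc2 to Psmc1 the control ratio was 1.404 ± 0.0339 and the knockdown ratio 1.85 ± 0.0984. Psmc2 and Psmc1 each changed by less than the 0.23 by which the worth of 1 read could differ between whole arms. Neither ratio overlapped between the arms (log2 differences 0.62 and 0.40, exact permutation p = 0.00216 each, two-sided, the smallest that 6 against 6 libraries can give, adjusted 0.00505). For Psmc2 to Psmc1 that outcome was fixed in advance, since neither gene overlapped between the arms and they moved in opposite directions. Psmc4 and Psmc5 had also been called in opposite directions, so these p-values add no support to the calls of the single genes. The ratio of Psmc6 to Psmc3 was 0.599 ± 0.04297 and 0.581 ± 0.0437, with overlapping arms (log2 difference −0.04, exact permutation p = 0.489).

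**Figure D3:**
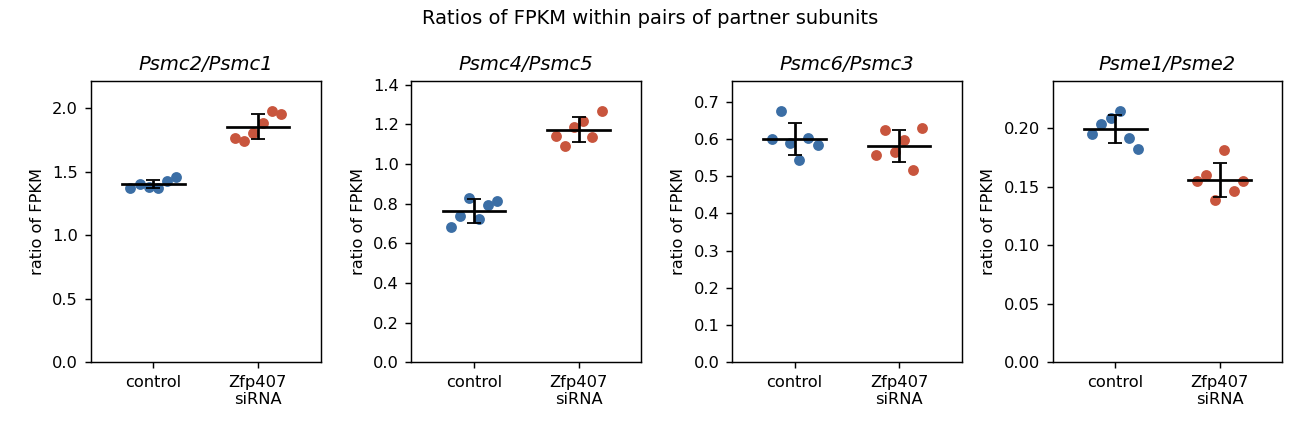
Ratio of FPKM within pairs of partner subunits in each library (points), with the mean (line) and SD (bar) of 6 control and 6 Zfp407 siRNA libraries. Psmc2/Psmc1 and Psmc4/Psmc5 are higher and Psme1/Psme2 is lower in every knockdown library than in any control library, while Psmc6/Psmc3 overlaps between the arms.

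Of the non-ATPase subunits of the base, Psmd2, a scaffold that also holds ubiquitin-like domains of shuttle factors, had 91.5, 87.5, 92.7, 90.2, 92.2 and 89.95 FPKM in control and 106, 105, 104, 100.3, 98.8 and 97.5 FPKM in knockdown libraries. The arms did not overlap (log2 fold change 0.17, SE 0.03, limma adjusted p = 0.00156). Psmd4, a ubiquitin receptor, had 108, 85.1, 99.8, 90.8, 98.2 and 103 FPKM in control and 99.8, 105, 103, 91.8, 105 and 100.1 FPKM in knockdown libraries, with the knockdown values inside the control range (log2 fold change 0.05, SE 0.06, adjusted p = 0.501). Psmd1, the large scaffold of the base, stands in a row that names several genes, Armc9 among them, and is not a member.

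In the lid, 1 of 8 members rose, 1 fell and 6 did not pass. Psmd6 had 55.7, 49.01, 51.3, 51.6, 59.9 and 58.5 FPKM in control and 66.8, 62.9, 67.7, 56.3, 65.7 and 60.8 FPKM in knockdown libraries, with overlap through knockdown library 4 (log2 fold change 0.22, SE 0.06, limma adjusted p = 0.0137). Psmd8, whose yeast counterpart joins the lid last, had 64.6, 60.5, 61.95, 62.8, 67.2 and 64.97 FPKM in control and 53.4, 54.5, 55.1, 57.9, 57.8 and 53.7 FPKM in knockdown libraries. No knockdown value of Psmd8 reached the control range (log2 fold change −0.20, SE 0.04, adjusted p = 0.00108). Psmd14, the enzyme that removes ubiquitin chains from substrates, had a log2 fold change of −0.13 (SE 0.08, adjusted p = 0.257), and its partner Psmd7 of 0.04. Psmd3, Psmd11, Psmd12 and Psmd13 had log2 fold changes of 0.13, −0.13, 0.01 and −0.06. Psmd13 was measured with the least precision (SE 0.27), since control library 6 stood at 261 FPKM and the other control libraries at 75.2 to 121 FPKM.

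The activators were lower where they changed. Of the 4 members in the class of activators and regulators, 2 fell and 2 did not pass. Psme4, the large activator of the nucleus that opens the core without ATP, had 29.99, 29.8, 30.4, 30.7, 33.3 and 28.2 FPKM in control and 25.5, 22.6, 21.8, 24.9, 25.1 and 25.01 FPKM in knockdown libraries. The arms did not overlap and the mean fell by 20.5% (log2 fold change −0.32, SE 0.05, limma adjusted p = 3.7e-04). Psme1, the alpha chain of the interferon-inducible activator ring, had 167, 146, 188, 180.1, 172 and 175 FPKM in control and 139, 125, 140.4, 143, 135 and 143 FPKM in knockdown libraries, again without overlap (log2 fold change −0.31, SE 0.06, adjusted p = 0.00133). Psme2, the beta chain of the same ring and its neighbour on chromosome 14, had 857, 719.6, 896, 838, 899 and 957 FPKM in control and 896, 781, 1012, 788, 919.9 and 919 FPKM in knockdown libraries, which overlap (log2 fold change 0.04, SE 0.08, adjusted p = 0.724). The sign of Psme2 turned after quantile normalization and without control library 2.

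The ratio of Psme1 to Psme2 fell from 0.199 ± 0.012 to 0.156 ± 0.0144 (SD, n = 6 each), with no overlap (log2 difference −0.36, exact permutation p = 0.00216, two-sided, adjusted 0.00505). Psme1 had already been called lower without overlap while Psme2 was not called, so this p-value adds no support to the call of Psme1. Psmf1, which binds and inhibits the core in the test tube, had a log2 fold change of 0.08 (SE 0.04, limma adjusted p = 0.145). Psme3, the nuclear activator, shares a row with Aoc2 and Aoc3, an adipocyte amine oxidase, and is not a member. That row fell from 366 ± 17.9 to 277 ± 23.03 FPKM, and which of its genes fell cannot be told.

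Of the assembly chaperones, 2 of 7 rose and 5 did not pass. Psmd9 (XLOC_026022, chromosome 5, 123228190 to 123327484 on GRCm38), whose protein escorts the Psmc6 and Psmc3 pair during assembly of the base, had 26.7, 19.9, 23.01, 22.4, 24.5 and 22.7 FPKM in control and 35.2, 34.9, 35.2, 35.8, 36.2 and 33.6 FPKM in knockdown libraries. All 6 knockdown libraries lay above every control library and close to each other. The means were 23.2 ± 2.26 and 35.1 ± 0.869 FPKM (SD, n = 6 each), 51.5% higher in the knockdown arm, with a log2 fold change of 0.58 (SE 0.06, limma adjusted p = 1.0e-05, and adjusted p = 0.00192 against a minimum fold of 1.2). In the authors' deposited table Psmd9 had a log2 fold change of 0.57, a p-value of 0.01597 and a q-value of 0.397. The locus of the Psmd9 row also spans Wdr66, Gm15857 and Rpl35a-ps6, which have rows of their own.

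Psmg4, which helps to build the alpha ring, had 29.6, 30.2, 29.8, 28.97, 29.01 and 34.5 FPKM in control and 31.4, 31.6, 36.97, 37.6, 37.3 and 43.2 FPKM in knockdown libraries. Control library 6 stood above knockdown libraries 1 and 2 (log2 fold change 0.25, SE 0.08, limma adjusted p = 0.0217). Its partner Psmg3, and Psmg1 and Psmg2, the other pair of alpha ring chaperones, had log2 fold changes of −0.12, −0.05 and −0.06, none of which passed. The base chaperones Psmd5, which escorts the Psmc2 and Psmc1 pair, and Psmd10, which binds Psmc4, had log2 fold changes of −0.06 and −0.11 (adjusted p = 0.655 and 0.0987).

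**Figure D4:**
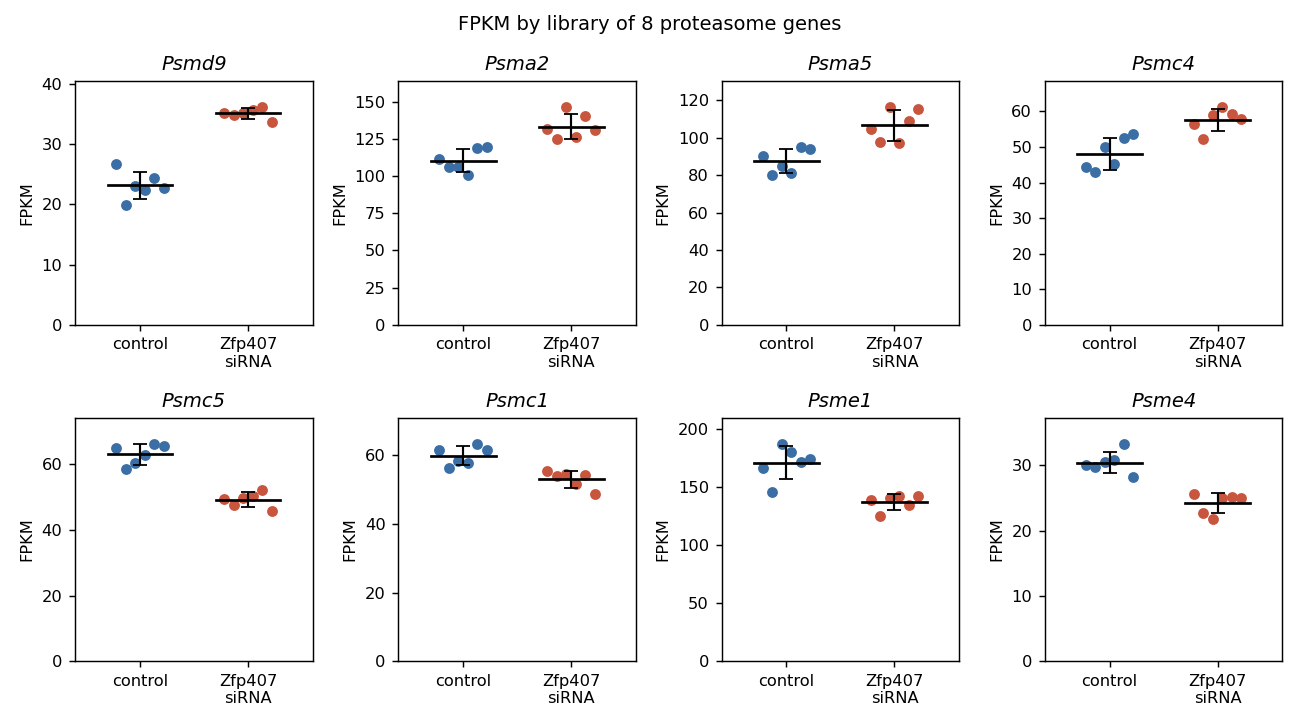
FPKM of 8 called proteasome genes in each of 6 control and 6 Zfp407 siRNA libraries (points), with the mean (line) and SD (bar); each axis starts at 0. In Psmd9, Psma2 and Psma5 all knockdown libraries lie above the control libraries, in Psmc5, Psmc1, Psme1 and Psme4 all lie below them, and in Psmc4 knockdown library 2 falls within the control range.

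Much of the variation among members was shared by whole libraries. Control library 2 was the lowest of its arm for 38 of the 44 members, with a median of −0.14 on the log2 scale against the control mean, and over all rows tested its median was −0.04. Control libraries 5 and 6 were the highest for 17 and 18 members. In the knockdown arm, library 2 was the lowest for 20 members, and library 3 the highest for 15. Without control library 2, 9 members rose and 8 fell: Psma7 and Psmb6 were no longer called, and Psmd10, Psmd14 and Psmg3 passed as lower. Summed FPKM was also lowest in control library 2, at 2772929 against 2944287 to 3748488 in the other libraries. The part of this library in the results was not tested beyond leaving it out. With each library centred on its median, 15 members rose and 5 fell, Psma6, Psmb3, Psmd3 and Psmf1 joining the risers.

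**Figure D5:**
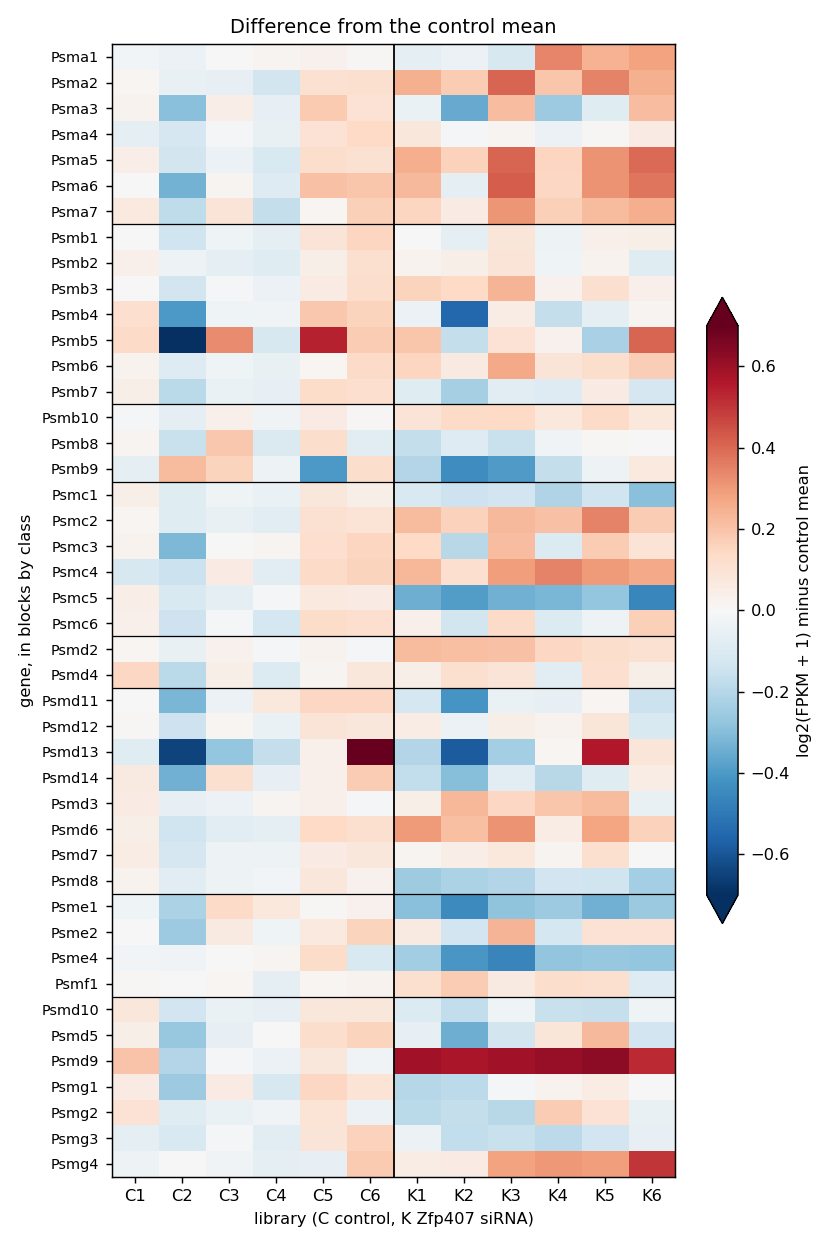
Difference of each proteasome gene from its control mean, on log2(FPKM + 1), in 6 control (C1 to C6) and 6 Zfp407 siRNA (K1 to K6) libraries, in blocks by class with core alpha at the top and assembly chaperones at the bottom; colours stop at 0.7 in either direction. Control library 2 is the lowest of its arm for 38 of 44 genes, the Psmd9 row is high in all knockdown libraries, and Psmb5 and Psmd13 vary within both arms.

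Proteins that work with the proteasome but carry other names were also examined, from a list of 26 genes of which 24 had a row of their own and were tested. Of these, 2 rose, 2 fell and 20 did not pass, with a median log2 fold change of 0.04. Over all rows tested 36.4% were called, 11.6% higher and 24.8% lower. Ubb, a polyubiquitin gene, fell from 449 ± 22.8 to 385 ± 38.9 FPKM, and Ubqln1, a shuttle factor that brings ubiquitinated proteins to the cap, rose from 53.2 ± 1.19 to a knockdown mean of 59.6 ± 4.26 FPKM (SD, n = 6 each, log2 fold changes −0.23 and 0.16, limma adjusted p = 0.0184 and 0.0183). For both genes the arms overlapped. Neither changed by more than the 0.23 by which the worth of 1 read could differ between whole arms. The count moved to 9 called genes after quantile normalization and to 7 without knockdown library 4.

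Of 14 listed regulators of proteasome genes 12 were tested. Among these, 4 fell, none rose and 8 did not pass (median log2 fold change −0.06), where 24.8% of all rows tested fell and 11.6% rose. Nfe2l1, the factor that raises proteasome genes when proteasome activity is short, fell, with a control mean of 367 ± 7.77 and a knockdown mean of 313 ± 34.95 FPKM (SD, n = 6 each, log2 fold change −0.23, limma adjusted p = 0.0154), in a row the authors marked as a failed test. Its arms overlapped, with control libraries at 360 to 379 FPKM and knockdown libraries 1 to 6 at 284, 305, 270, 364, 339 and 319 FPKM. Whether this unevenness follows the siRNA cannot be read from the columns. Ngly1, the enzyme that removes sugar chains from NFE2L1 and so activates it, fell as well, the means being 17.1 ± 1.33 and 14.2 ± 0.58 FPKM (log2 fold change −0.25, adjusted p = 0.00194). Foxo4, a transcription factor that has been tied to the lid gene PSMD11 in human stem cells, was at 16.3 ± 0.623 in control and fell to 13.1 ± 1.33 FPKM (log2 fold change −0.30, adjusted p = 0.00156).

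Of 14 listed genes of antigen processing, which the immunoproteasome and the Psme1 and Psme2 ring serve, 11 had a row of their own and were tested. They fell in 6 of 11 cases, with none higher and 5 not passing (median log2 fold change −0.16), beside 24.8% of all rows tested that fell and 11.6% that rose. H2-K1, a class I histocompatibility gene, fell from 383 ± 13.97 to 288 ± 27.998 FPKM and Calr, a chaperone of its folding, from 581 ± 48.3 to a mean of 436 ± 27.997 FPKM (SD, n = 6 each, log2 fold changes −0.41 and −0.41, limma adjusted p = 3.2e-04 and 4.1e-04). H2-D1, another class I gene, lay near the minimum and was not called, at 1.16 FPKM in control and 1.57 FPKM in knockdown cells (log2 fold change 0.25, limma adjusted p = 0.109). Nlrc5, a transactivator of class I genes, was low in both arms and fell, with 6.19 ± 1.08 in control against 4.19 ± 0.455 FPKM (log2 fold change −0.46, adjusted p = 0.00271). With centring, and without control library 5 or knockdown library 3, 3 of the 11 were called. None of the genes in these 3 lists passed against a minimum fold of 1.2.

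In the authors' deposited table none of the 44 members was marked significant, the lowest q-value being the 0.397 of Psmd9, and 3 had an unadjusted p-value under 0.05. The sign of the log2 fold change in that table was the same for all 16 members called here.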

How the data were processed

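RNA of 12 libraries was sequenced, 6 per arm. The submitters' processing notes name Cufflinks 2.0.2, and also TopHat2 2.0.5, SAMtools 0.1.18.0 and Bowtie2 2.0.0.7. The authors deposited FPKM per gene and library, with read totals not given, so depth is known only relatively. The authors' deposited table also holds a log2 fold change, kept as a score because it contains placeholder extremes, and p-values and q-values of their own comparison. No source used here names the genome build or annotation. Deposited positions of 99.6% of protein-coding rows overlapped the gene of that name in GENCODE M21 (GRCm38), and 1 was added to starts.

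Rows with a mean of at least 1 FPKM entered limma 3.58.1 (R 4.3.3) as log2(FPKM + 1) (trended empirical Bayes, two-sided, Benjamini-Hochberg over 14706 rows, threshold 0.05). Fold changes on this scale understate those of low genes. The procedure was tested on simulated data. Alternatives were another pseudocount, filter or scaling, a minimum fold of 1.2, and leaving out each library.

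Members and lists were chosen with earlier results of these data known. Values of every library are given for the 2 members of each class with the largest absolute log2 fold change, members past the minimum fold, the immunoproteasome, Psme1, Psme2 and Zfp407, and from each companion list the 3 called genes with the largest change are named, except a gene that is not reported here. Other named genes were chosen after their values were seen.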

Additional observations from a re-analysis of the deposited data

Results flagged for a closer look

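In 5 of 90 sets of 6 libraries, each a gene in an arm, 1 library stood apart from the rest of its arm. Chance flags about 1 in 20 such sets. Psmd13, a lid subunit, was at 261 FPKM in control library 6, where the next highest control library had 121 FPKM. Psmg4, a chaperone of the alpha ring, was at 34.5 FPKM in the same library, above 30.2 FPKM in the next. Psmc3, an ATPase, was at 88.3 FPKM in control library 2, below 110.4 FPKM in the next lowest. Psmc2, an ATPase, was at 107 FPKM in knockdown library 5, above 98.4 FPKM in the next, and Psmf1, an inhibitor of the core, was at 21.7 FPKM in control library 4, below 22.6 FPKM in the next.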

How the results depend on the processing

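No called member turned its sign under any alternative run. Against a minimum fold of 1.2, the members that rose went to 1 and those that fell to 0, with 1 chaperone called and 0 in every other class and in the partner, regulator and antigen processing lists. Counts of 2 core beta subunits were called with median centring and with quantile normalization, which also called 4 lid subunits and 9 partners, and centring left 3 antigen processing genes. With no filter on low values 10 members rose, Psma7 no longer being called. Centring moved the share of lower calls over all rows from 68.1% to 57.7%. Of members overlapping no other row, 2 fell. Leaving out each library in turn gave 9 to 12 members higher and 5 to 8 lower, 0 to 2 core beta, 1 to 2 immunoproteasome and 2 to 4 chaperone members called, and 4 to 7 partners and 3 to 6 antigen processing genes. The log2 fold change of Psme2 turned to −0.0748 with quantile normalization and lay between −0.0098 (without control library 2) and 0.0759 when a library was left out, and the log2 ratio of Psmb8 to Psmb5 between −0.215 and 0.0444, the latter without control library 2. The cause was not tested. The alternatives on the ratios and on overlapping rows were chosen after seeing the data. No paired analysis was possible because the columns of the knockdown libraries carry no sample number of the labels. Without read totals, no counting interval can be given.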
